A study of Mus musculus with 6 samples.

Results

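The guanylate-binding protein (GBP) genes are 10 genes of the mouse genome, *Gbp2*, *Gbp2b*, *Gbp3*, *Gbp4*, *Gbp5*, *Gbp6*, *Gbp7*, *Gbp8*, *Gbp9* and *Gbp10*, taken by their symbols from a table of 54309 gene identifiers. Each of the 10 was found once, and each had a mean above the minimum of 10 normalized counts, so 10 of the 13963 genes tested are members. Their Ensembl identifiers in the table are, in the same order, ENSMUSG00000028270.13, ENSMUSG00000040264.11, ENSMUSG00000028268.15, ENSMUSG00000079363.8, ENSMUSG00000105504.5, ENSMUSG00000104713.5, ENSMUSG00000040253.16, ENSMUSG00000034438.17, ENSMUSG00000029298.16 and ENSMUSG00000105096.2. RNA came from whole subcutaneous tumors of MCA205, a transplantable fibrosarcoma cell line, grown in 7-week-old female C57BL/6J mice and collected on day 8. In the control group, 3 mice drank milliQ water, and in the FF-10101 group, 3 mice drank water with 0.1 mg/mL FF-10101 from day 1. FF-10101 is a covalent inhibitor of FLT3 that also inhibits CSF1R, the receptor on which most tissue macrophages depend. Dosing was by free drinking, so the intake of a single mouse is not known, and the 3 tumors of a group are biological replicates.

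GBPs are large GTPases of the dynamin superfamily whose transcription is switched on by interferons, above all by IFN-γ, in part through the factor IRF1. In macrophages and other cells they bind GTP, assemble on the membranes of bacteria and of vacuoles that hold parasites, and help caspase-11 and the inflammasomes to detect the released contents. Some members carry a cysteine near the C-terminus that receives a prenyl lipid and anchors the protein to membranes. In tumors, GBP transcripts are widely used as a readout of IFN-γ exposure, and they are made by macrophages, endothelial cells, lymphocytes and tumor cells alike.

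The 10 genes lie in 2 clusters. In the annotation, *Gbp5*, *Gbp7*, *Gbp3*, *Gbp2b* and *Gbp2* follow each other in this order on the plus strand of chromosome 3, and *Gbp8*, *Gbp9*, *Gbp4*, *Gbp10* and *Gbp6* follow each other on the minus strand of chromosome 5. Promoter windows of 250 bases before and 50 bases after the transcription start were matched in a RefSeq table on GRCm38.p6 for 5 of the 10 members, those on chromosome 3. They were searched on both strands for 2 patterns of interferon-responsive promoters, the interferon-stimulated response element (ISRE), spelled GAAANNGAAA or, on the other strand, TTTCNNTTTC, and the IFN-γ–activated sequence (GAS), spelled TTCNNNGAA. The ISRE letters were present in 1 window of each of the 5 genes, against 3.44% of all 32851 windows. The GAS letters were present in the windows of *Gbp5* and *Gbp7*, 2 times in each, against 8.30% of all windows. Shown here are the windows of *Gbp2* and *Gbp2b*, neighbors and each other's closest relative by coding sequence, and of *Gbp5* and *Gbp7*, which hold both patterns. Measured levels and fitted fold changes were not the same in these members. A difference in response between members, or its relation to these sequences, was not tested. Capitals mark the matched letters.

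*Gbp2* promoter, GRCm38.p6 chr3:142620413-142620712, plus strand: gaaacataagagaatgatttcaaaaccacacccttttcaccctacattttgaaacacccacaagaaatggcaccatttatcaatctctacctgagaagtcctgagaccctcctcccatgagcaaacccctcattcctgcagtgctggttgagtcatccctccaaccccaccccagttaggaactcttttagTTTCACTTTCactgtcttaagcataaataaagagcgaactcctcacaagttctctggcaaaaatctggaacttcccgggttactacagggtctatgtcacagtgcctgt

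*Gbp2b* promoter, GRCm38.p6 chr3:142594597-142594896, plus strand: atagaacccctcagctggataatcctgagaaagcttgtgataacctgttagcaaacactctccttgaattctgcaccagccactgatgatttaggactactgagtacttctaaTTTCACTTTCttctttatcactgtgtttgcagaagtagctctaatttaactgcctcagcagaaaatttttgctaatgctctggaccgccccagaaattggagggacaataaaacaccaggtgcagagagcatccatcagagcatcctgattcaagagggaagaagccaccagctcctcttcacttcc

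*Gbp5* promoter, GRCm38.p6 chr3:142496684-142496983, plus strand: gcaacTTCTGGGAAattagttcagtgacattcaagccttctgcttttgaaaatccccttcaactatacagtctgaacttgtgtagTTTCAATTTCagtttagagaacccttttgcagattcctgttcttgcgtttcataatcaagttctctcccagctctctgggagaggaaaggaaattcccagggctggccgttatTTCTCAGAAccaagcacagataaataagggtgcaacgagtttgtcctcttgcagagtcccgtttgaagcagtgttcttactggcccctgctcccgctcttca

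*Gbp7* promoter, GRCm38.p6 chr3:142530086-142530385, plus strand: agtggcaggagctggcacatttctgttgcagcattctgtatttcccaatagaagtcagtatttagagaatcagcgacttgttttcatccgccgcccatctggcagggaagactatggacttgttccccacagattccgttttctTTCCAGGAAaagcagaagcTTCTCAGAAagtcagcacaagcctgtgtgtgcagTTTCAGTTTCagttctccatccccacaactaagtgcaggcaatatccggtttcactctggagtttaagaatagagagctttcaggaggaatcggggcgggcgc

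In *Gbp2* the ISRE match, TTTCACTTTC, spans positions −59 to −50 from the start, and in *Gbp2b* the same 10 letters lie farther away, at −137 to −128. In *Gbp7* the ISRE match at −53 to −44 follows GAS matches at −106 to −98 and −87 to −79. In *Gbp5* the ISRE match lies at −165 to −156, between GAS matches at −245 to −237 and −52 to −44. *Gbp3* has 2 RefSeq start sites, and the window of one of them holds 2 ISRE matches that overlap each other, from −45 to −36 and from −39 to −30. No ISRE match overlaps a GAS match in these windows. A match of letters does not show that a factor binds there.

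The coding sequences of the 10 genes, from the GENCODE vM21 transcripts, end as follows, with the stop codon as the last 3 bases and the fourth codon before the stop in capitals where it is a cysteine codon. These ends are shown because they separate the members with the cysteine of a prenylation site from the others.

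*Gbp2*: aagTGCactatactctga
*Gbp2b*: tcaTGCaccatactttaa
*Gbp3*: ggctcactaagtagttag
*Gbp4*: aaaaaggatagactgtga
*Gbp5*: gacTGTgttataagctaa
*Gbp6*: tatctaaagcatttatga
*Gbp7*: aaagttagaaaactctaa
*Gbp8*: tcccatttcaatgattga
*Gbp9*: tcacttttaaggaaatga
*Gbp10*: tatctaaagcatttatga

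A cysteine codon stands in that place in *Gbp2*, *Gbp2b* and *Gbp5*, all on chromosome 3, and in none of the other 7 members. The ends of *Gbp6* and *Gbp10* are the same, and their coding sequences are 98.4% identical over 1836 bases. *Gbp2* and *Gbp2b* are 82.5% identical and *Gbp3* and *Gbp7* 76.5%, gaps counted as differences, and the lowest identity of a pair is 52.8%, between *Gbp5* and *Gbp8*. Likeness of sequence limits how surely reads can be assigned. Of the stretches of 31 bases in the transcripts of *Gbp10*, 89.8% occur in another gene as well, 80.8% in *Gbp6*, and for *Gbp6* the shared part is 74.2%. It is 31.1% for *Gbp8*, 18.3% for *Gbp9*, 14.95% for *Gbp4*, 14.7% for *Gbp7* and at most 5.64% for *Gbp2*, *Gbp2b*, *Gbp3* and *Gbp5*. The values of *Gbp10* and *Gbp6* taken singly are therefore uncertain.

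Sequencing gave 9143806 to 13258258 reads assigned to genes per tumor, and 18467 to 19440 genes had a read. Values are normalized counts, that is, reads over the size factor that belongs to each tumor. The 3 control tumors were far apart in this family. Relative to the mean of control tumors 2 and 3, control tumor 1 was 2.10 times as high for *Gbp7* and 25.9 times as high for *Gbp2b*, with the other 8 members between these. For 9 of the 10 members, all but *Gbp7*, control tumor 1 was more than 2 times as high as each of the other controls on the log2(normalized count + 1) scale, which held for 9.22% of all genes tested. The fits are therefore given with all 6 tumors and without control tumor 1. As that tumor was singled out by its levels of these same genes, and is the control closest to the treated tumors for most of them, leaving it out widens the differences and narrows the spread by construction. Values and counts without it describe the other 5 tumors and are no independent evidence of a change.

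Of the members with the prenylation cysteine, *Gbp2*, which coats bacterial and parasite vacuoles, was the most abundant. It had 22297, 3907 and 3113 normalized counts in control tumors 1, 2 and 3 and 25487, 23829 and 34013 in FF-10101 tumors 1, 2 and 3. Each treated tumor was above each control tumor, but control tumor 1 stood close to the lowest treated tumor and far from the other controls. The mean was 9772 ± 10854 (SD, n = 3) in the control group and 27777 ± 5464 (SD, n = 3) in the FF-10101 group, and the fitted fold change was 2.08 on the log2 scale (standard error, SE, 0.67, limma adjusted p = 0.238).

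*Gbp5*, which promotes assembly of the NLRP3 inflammasome, showed the same arrangement. It had 2395, 507 and 321 normalized counts in the control tumors and 2895, 2654 and 3107 in the FF-10101–treated tumors, and the fitted fold change was 1.98 on the log2 scale (SE 0.64, limma adjusted p = 0.239). The 3 treated tumors differed from each other by at most 1.17 times.

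*Gbp2b*, the gene formerly called mouse *Gbp1*, departed from the others. It had 1050.2, 47.8 and 33.3 normalized counts in the control tumors and 90.9, 230.2 and 233 in the FF-10101–treated tumors. Control tumor 1 was the highest of the 6 tumors, above each treated tumor, whereas each treated tumor was above control tumors 2 and 3. The mean was 377 ± 583 (SD, n = 3) in the control group and 185 ± 81.2 (SD, n = 3) in the FF-10101 group, lower after treatment, whereas the mean of the log values was higher. The log2 fold change was 0.50 with a 95% interval from −2.21 to 3.21 (limma adjusted p = 0.853), so neither a fall nor a rise of several fold could be told from no change. Without control tumor 2 it was −0.15, and without control tumor 3 −0.41.

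**Figure D1:**
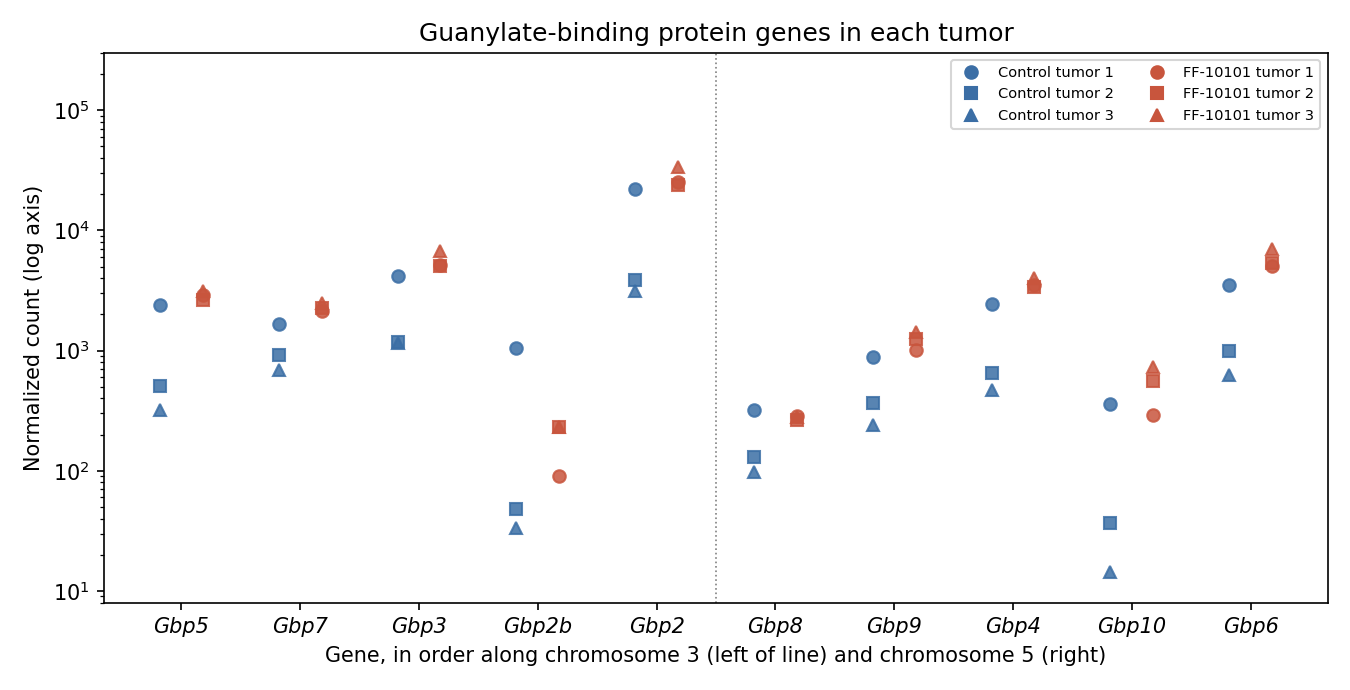
Normalized counts (log axis) of the 10 genes in each of the 3 control (blue) and 3 FF-10101–treated (red) tumors, 1 point per tumor, with the genes in their order along chromosome 3 and chromosome 5. Control tumor 1 (blue circle) lies among or near the treated tumors for most genes, and for *Gbp2b* it is the highest point at 1050.2.

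The remaining members on chromosome 3 lack that codon. *Gbp3* had 4212, 1173 and 1148 normalized counts in the control tumors and 5159, 5064 and 6706 in the FF-10101–treated tumors, and the fitted fold change was 1.65 on the log2 scale (SE 0.47, limma adjusted p = 0.229). *Gbp7* had 1681, 912 and 686 against 2151, 2270.0 and 2479.9, and the fitted fold change was 1.17 on the log2 scale (SE 0.30, limma adjusted p = 0.229). Both were higher in each treated tumor than in each control tumor, and *Gbp7* was the member in which control tumor 1 differed least from the other controls.

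On chromosome 5, *Gbp4*, *Gbp6* and *Gbp9* followed the pattern of *Gbp2*. *Gbp4* had 2425, 652 and 469 normalized counts in the control tumors and 3518.5, 3387 and 3996 in the FF-10101–treated tumors, and the fitted fold change was 2.0 on the log2 scale (SE 0.53, limma adjusted p = 0.229). *Gbp6* had 3515, 993 and 631 against 5070.4, 5362 and 7070.0, and the fitted fold change was 2.15 on the log2 scale (SE 0.55, limma adjusted p = 0.229). *Gbp9* had 878, 365 and 242 against 1020.3, 1258 and 1441, and the fitted fold change was 1.52 on the log2 scale (SE 0.42, limma adjusted p = 0.229). In each of these genes the groups did not overlap.

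In *Gbp10* and *Gbp8* the groups overlapped through control tumor 1. *Gbp10* had 359, 36.9 and 14.4 normalized counts in the control tumors and 290.2, 556 and 728 in the FF-10101–treated tumors, and the fitted fold change was 3.04 on the log2 scale (SE 1.02, limma adjusted p = 0.244). Control tumor 3 held only 13 reads of it, and FF-10101 tumor 1 was below control tumor 1. *Gbp8* had 322, 129 and 97.6 in the control tumors and 285, 267 and 283 in the FF-10101–treated tumors, hence a log2 fold change of 0.80 with a 95% interval from −0.13 to 1.72 (limma adjusted p = 0.358). Control tumor 1 was the highest of the 6 tumors for *Gbp8* as for *Gbp2b*, while the 3 treated tumors, at 278 ± 9.71 (SD, n = 3), were nearly level.

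With all 6 tumors, 0 of the 10 members passed an adjusted p of 0.05 in limma, where 6 genes did over all genes tested (0.0430%), 4 of them higher after FF-10101 (0.0286%). An unadjusted p under 0.05 with a higher value after FF-10101 was reached by 8 of the 10, all but *Gbp2b* and *Gbp8*, against 8.77% of all genes. In 7 of the 10, *Gbp2*, *Gbp3*, *Gbp4*, *Gbp5*, *Gbp6*, *Gbp7* and *Gbp9*, each treated tumor was above each control tumor, against 10.9% of all genes (20.2% did not overlap in either direction). For these 7 the exact two-sided permutation test gave p = 0.1, the smallest that 3 tumors against 3 allow, and it gave 0.2 for *Gbp10*, 0.4 for *Gbp8* and 0.8 for *Gbp2b*. The log2 fold change was positive for 10 of 10 members, though the group means of *Gbp2b* ran the other way, and for 51.9% of all genes, and its median was 1.81 over the 10 members and 0.02 over all genes tested.

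Without control tumor 1, 10 of the 10 members were higher after FF-10101 at an adjusted p under 0.05 in limma, against 12.0% of all genes tested (21.9% in either direction). With any other tumor left out instead, 0 of the 10 passed. The log2 fold changes without control tumor 1 ran from 1.30 for *Gbp8* to 4.34 for *Gbp10*, with 2.98 for *Gbp2*, 2.83 for *Gbp5* and 2.06 for *Gbp2b*. The median over the members was 2.49, against 0.04 over all genes. On the linear scale, the mean of the FF-10101 group was 2.45 times the mean of control tumors 2 and 3 for *Gbp8*, 7.91 times for *Gbp2* and 20.4 times for *Gbp10*.

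**Figure D2:**
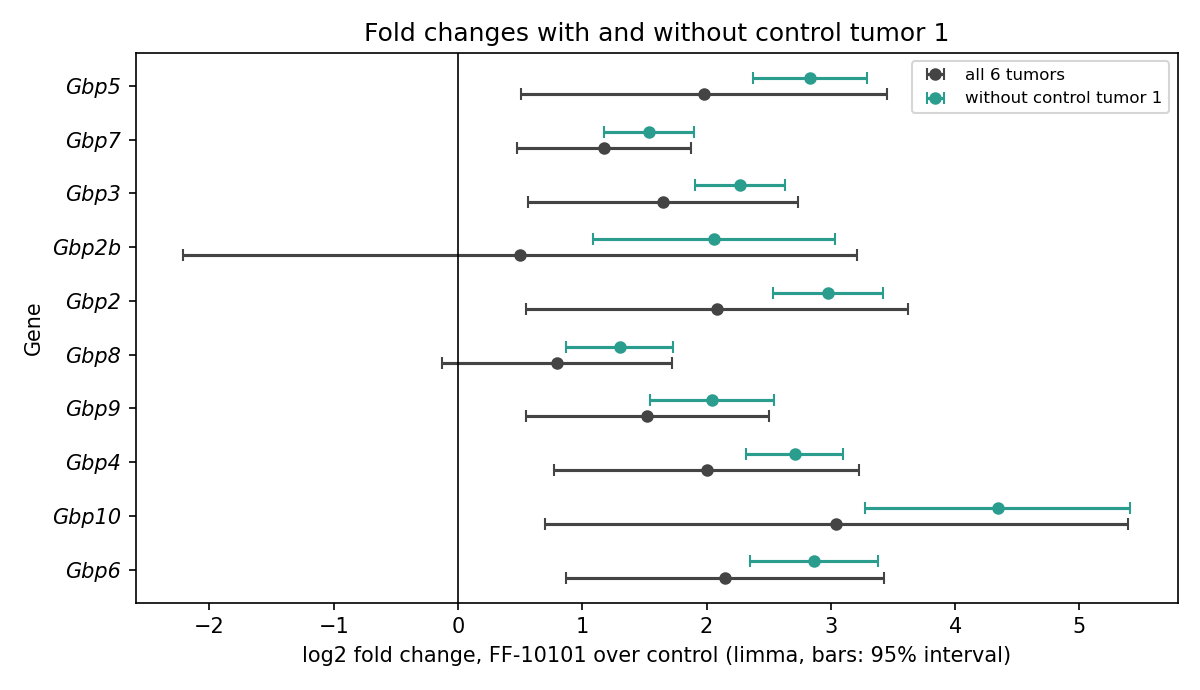
Log2 fold change of each gene, FF-10101 over control, from limma with all 6 tumors (dark grey) and without control tumor 1 (green), with bars for the 95% interval and genes in chromosomal order. With all 6 tumors the intervals of *Gbp2b* and *Gbp8* include 0, and without control tumor 1 the lowest estimate is 1.30.

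Levels of different genes were compared per kilobase of the longest annotated coding transcript. *Gbp2* had 3884 ± 4314 normalized counts per kilobase (SD, n = 3) in the control group and 11040.0 ± 2172 (SD, n = 3) in the FF-10101 group, and it was above every other member in 6 of 6 tumors. It made up 51.6% to 62.4% of the summed level of the family, the lowest shares being those of control tumors 2 and 3. By the median length of the coding transcripts its share was 37.9% to 49.0%, and that of *Gbp4* was 17.8% to 21.3% in place of 3.76% to 4.78%. *Gbp3* and *Gbp6* came next and could not be ordered, as *Gbp3* was above *Gbp6* in 3 of 6 tumors, the 3 controls. *Gbp5*, *Gbp4*, *Gbp7* and *Gbp9* followed, of which *Gbp4* and *Gbp7* could not be separated (4 of 6 tumors). *Gbp2b*, *Gbp8* and *Gbp10* were lowest by the mean over the 6 tumors and changed places between tumors. *Gbp2b* was above *Gbp8* in 1 of 6 tumors, control tumor 1. In that tumor *Gbp2b*, at 372 per kilobase, was also above *Gbp7* (299) and *Gbp9* (200), so it was not at the low end there. The order depends on the lengths used: with the median length of the coding transcripts *Gbp4* moved from rank 5 to rank 2. That median is 0.752 kilobases for *Gbp4* and 1.639 for *Gbp3*, shorter than their coding sequences of 1896 and 1863 bases. Ranks and shares by the median length are therefore less reliable than those by the longest transcript.

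**Figure D3:**
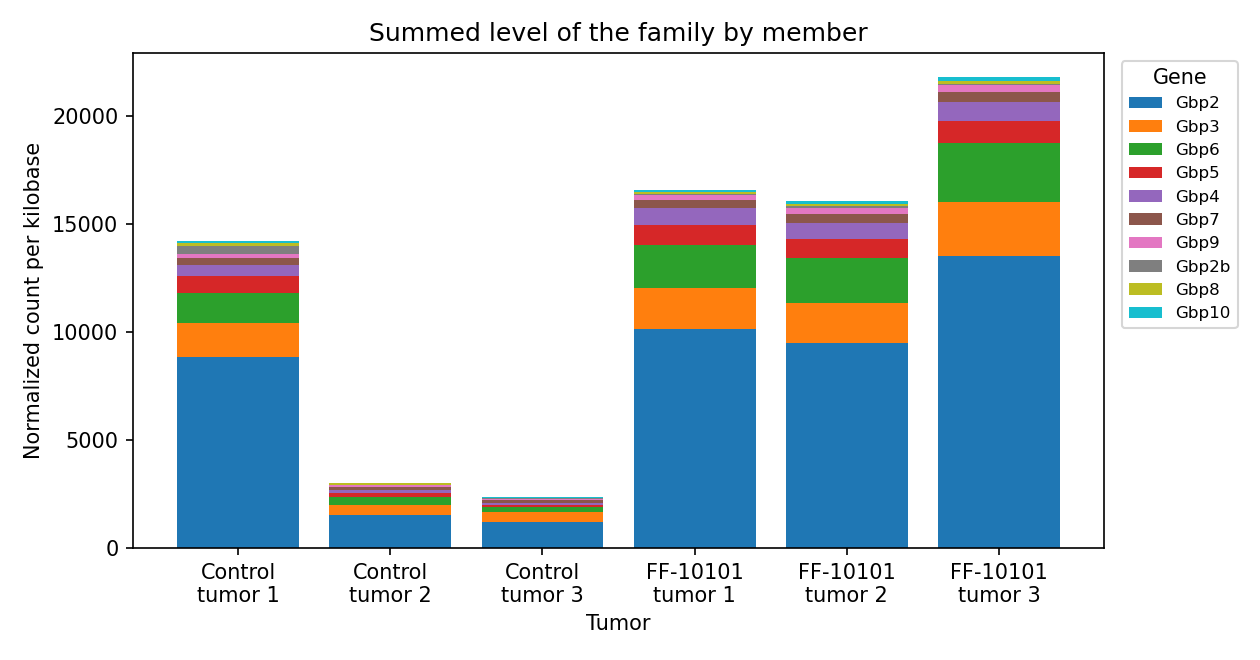
Normalized count per kilobase of each member, stacked for each of the 3 control and 3 FF-10101–treated tumors, so that the height of a bar is the sum over the 10 genes. The sum is 14206 in control tumor 1, 3007 and 2349 in control tumors 2 and 3, and 16569.8, 16073 and 21806 in the treated tumors.

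The makeup of the family also differed between tumors. *Gbp2b* and *Gbp2* are neighbors with the same prenylation codon and the same ISRE letters, yet the level of *Gbp2b* per kilobase was 4.20%, 1.09% and 0.953% of that of *Gbp2* in the control tumors and 0.318%, 0.861% and 0.610% in the FF-10101–treated tumors. The share was lower in each treated tumor than in each control tumor (p = 0.1 by exact permutation of the tumors, two-sided, the lowest value possible), a pair chosen after the values had been seen. The difference between control tumors 2 and 3 and the highest treated tumor was small beside the gap to control tumor 1. *Gbp2* had 13.3, 4.28 and 4.54 times the normalized counts of *Gbp7* among the controls and 11.9, 10.5 and 13.7 times after FF-10101. For this ratio the groups overlapped through control tumor 1 (p = 0.3 in an exact two-sided permutation test).

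**Figure D4:**
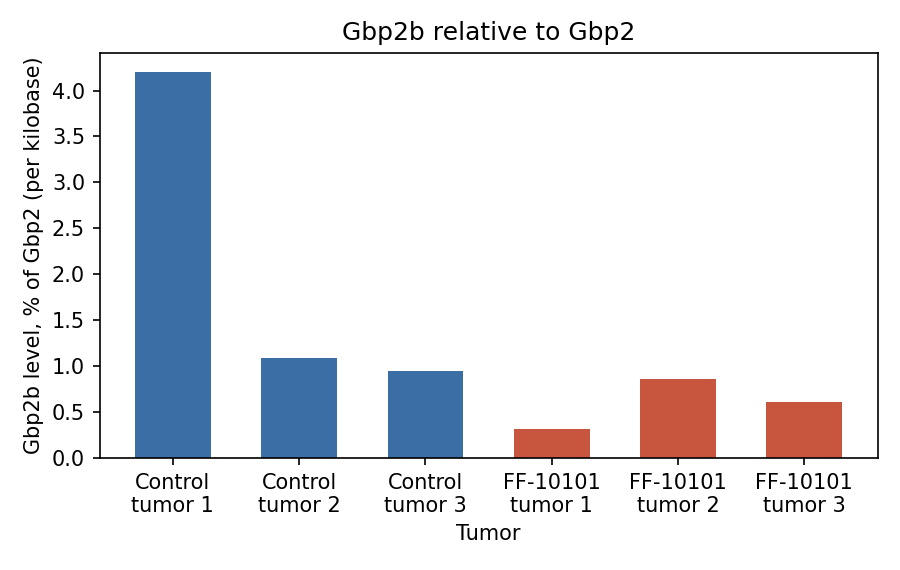
Level of *Gbp2b* per kilobase as a percentage of that of *Gbp2* in each of the 3 control (blue) and 3 FF-10101–treated (red) tumors, 1 bar per tumor. Control tumor 1 reaches 4.20%, and the treated tumors lie between 0.318% and 0.861%.

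Because *Gbp6* and *Gbp10* share most of their sequence with each other and with *Gm43302*, a predicted gene that overlaps them, the 3 were also summed. The sum was 4522, 1082 and 687 normalized counts in the control tumors and 6224, 6332 and 8315 in the FF-10101–treated tumors, so that each treated tumor was above each control tumor. *Gm43302* alone had 647, 52.2 and 41.0 against 863, 415 and 517. *Gbp11*, a polymorphic pseudogene, had 60.8, 3.26 and 15.5 normalized counts in the control tumors and 88.6, 64.1 and 60.4 in the treated tumors. The log2 fold changes of *Gm43302* and *Gbp11* were 2.34 and 2.12 with all 6 tumors (limma adjusted p = 0.290 for each) and 3.59 and 3.08 without control tumor 1 (limma adjusted p = 0.000599 and 0.00952). *Gbp2-ps* had 0 reads in each tumor, which allows up to 3 reads, or 2.29 to 3.38 normalized counts. Of the protein-coding genes flanking the clusters, 3 on each side of each cluster, none passed an adjusted p of 0.05 in limma with all 6 tumors. Of the 12, 6 passed without control tumor 1, *Unc5c*, *Pdlim5*, *Pkd2*, *Zfp951* and *Lrrc8d* as higher and *Abcg3* as lower, against 21.9% of all genes in either direction. In 5 of the 12, *Unc5c*, *Bmpr1b*, *Kyat3*, *Pkd2* and *Zfp951*, each treated tumor was above each control tumor, against 10.9% of all genes. *Pkd2* and *Zfp951*, beside *Abcg3*, had log2 fold changes of 0.80 and 0.89 with all 6 tumors. *Kyat3*, *Gtf2b* and *Pkn2*, next to *Gbp2*, had log2 fold changes of 0.70, −0.17 and 0.000227, and *Lrrc8b*, *Lrrc8c* and *Lrrc8d*, beyond *Gbp6*, of −0.08, −0.02 and 0.68. *Unc5c*, on the other side of the chromosome 3 cluster, had 120.4, 18.5 and 4.44 normalized counts in the control tumors and 171, 201 and 149 in the treated tumors, hence a log2 fold change of 2.89 (limma adjusted p = 0.243), an arrangement like that of the GBP genes. *Abcg3*, on the other side of the chromosome 5 cluster, was lower in each treated tumor than in each control tumor, with a log2 fold change of −1.08 (limma adjusted p = 0.229).

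The genes of the pathway upstream of the family were counted from a list of 16 interferon signaling genes. None passed an adjusted p of 0.05 in limma with all 6 tumors (5 had an unadjusted p under 0.05, 4 of them higher and 1 lower, against 16.3% of all genes), 13 had a positive log2 fold change, and the median was 0.47. *Ifng*, the cytokine itself, had 146, 25.0 and 11.1 normalized counts in the control tumors and 132, 115 and 188 in the FF-10101–treated tumors, and the fitted fold change was 1.99 on the log2 scale (SE 0.80, limma adjusted p = 0.290). Control tumor 1 lay inside the range of the treated tumors. *Irf8*, a partner of IRF1 in myeloid cells, had 2783, 1091 and 1018 against 1624, 1479 and 1726. Control tumor 1 was the highest tumor for it, as for *Gbp2b* and *Gbp8*.

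*Irf1*, which acts on GBP promoters, had a log2 fold change of 0.77 (limma adjusted p = 0.263), *Jak2*, the kinase of the IFN-γ receptor, 0.80 (adjusted p = 0.235) and *Socs1*, an inhibitor of the pathway, 0.50 (adjusted p = 0.544). The receptor chain genes *Ifngr1* and *Ifngr2* had 0.17 and −0.38. Without control tumor 1, 12 of the 16 passed an adjusted p of 0.05 as higher (12.0% of all genes did), among them *Ifng* (log2 fold change 3.01, limma adjusted p = 0.00272) and *Irf1* (1.10, adjusted p = 0.00461), and 1, *Ifngr2* (−0.46, adjusted p = 0.0461), as lower.

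The immunity-related GTPases are a second family of IFN-γ–induced GTPases, whose regulators *Irgm1*, *Irgm2* and *Igtp* govern where GBPs settle on membranes. The log2 fold changes of these 3 genes were 1.95, 1.96 and 2.24 (limma adjusted p = 0.229 for each). *Ifi47* had 1.499 (adjusted p = 0.245). Of the 8 genes listed, 8 had a positive log2 fold change with a median of 1.96, 0 passed an adjusted p of 0.05 (8 had an unadjusted p under 0.05 and were higher, against 8.77% of all genes), and in 7 each treated tumor was above each control tumor, against 10.9%. Without control tumor 1, 8 of 8 passed as higher, against 12.0%, with a median of 2.69.

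Partners that act with or after GBPs had medians nearer to 0, with single genes on both sides. Of 12 genes for ubiquitin and LC3 conjugation, which direct GBPs to vacuoles, 9 had a positive log2 fold change with a median of 0.13, and of 11 inflammasome and pyroptosis genes 7 did with a median of 0.10. None of either list passed with all 6 tumors in limma (2 and 3 had an unadjusted p under 0.05, where 16.3% of all genes did). *Casp4*, which encodes caspase-11, the sensor that GBPs bring into contact with lipopolysaccharide, had 406, 199 and 212 normalized counts in the control tumors and 454, 492 and 592 in the FF-10101–treated tumors, hence a log2 fold change of 0.98 (adjusted p = 0.229). Those of *Casp1*, *Aim2*, *Nlrp3*, *Gsdmd* and *Il18* were 0.62, −0.17, 0.10, 0.07 and 0.36. In *Trim21* (log2 fold change 0.91), *Gabarapl1* (0.26), *Casp4* and *Il1b* (0.86) each treated tumor was above each control tumor, and in *Pycard* (−0.64), which encodes the inflammasome adaptor ASC, *Ninj1* (−0.40) and *Atg5* (−0.43) each was below. These are 2 above and 1 below of the 12 genes and 2 above and 2 below of the 11, where 20.2% of all genes did not overlap in either direction. Without control tumor 1, 3 of the 12 and 4 of the 11 passed as higher, against 12.0% of all genes, including *Casp4* (1.31, adjusted p = 0.00286) and *Casp1* (1.08, adjusted p = 0.00768). Among 6 prenylation enzyme genes the median was −0.01 with all 6 tumors, with *Pggt1b*, a subunit of an enzyme that attaches geranylgeranyl groups, at 0.58 and *Fntb*, a subunit of one that attaches farnesyl groups, at −0.17. The median was −0.06 without control tumor 1, and 1 of the 6, *Pggt1b*, passed as higher, close to the 12.0% of all genes.

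**Figure D5:**
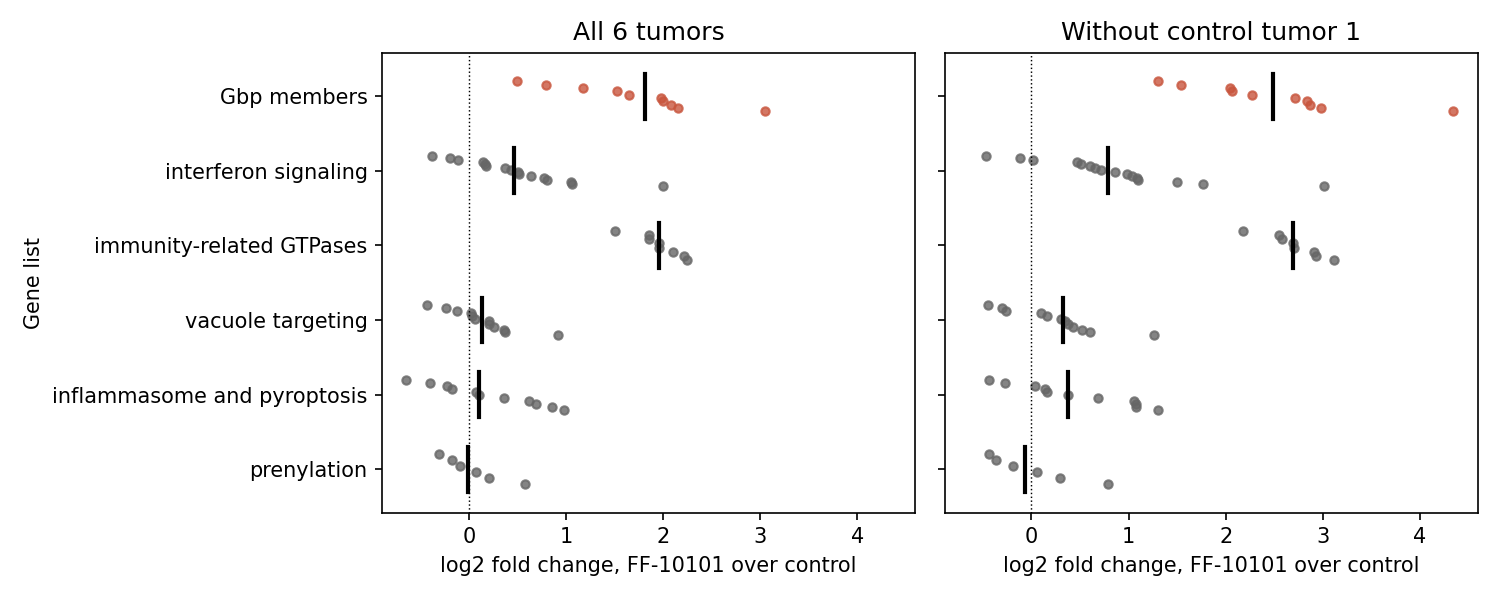
Log2 fold change, FF-10101 over control, of each gene of the family (red) and of 5 lists of genes that act before, beside or after it (grey), with a black bar at the median of each list, from limma with all 6 tumors (left) and without control tumor 1 (right). The medians of the GBP genes and of the immunity-related GTPases, 1.81 and 1.96 on the left, stand above those of the other 4 lists.

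Values from whole tumors sum over all cells, so a change in the number of cells of a type and a change in RNA per cell cannot be told apart. Markers of several cell types were therefore summed in each tumor. The sum of 7 macrophage markers was 43115 to 62398 normalized counts in the control tumors and 20272 to 35531 in the FF-10101–treated tumors, without overlap. *Lyz2* made up most of that sum. With it left out, a choice made after seeing the data, the other 6 markers summed to 20024, 11473 and 9685 in the control tumors and 7429.6, 11006 and 11806 in the treated tumors, and the groups overlapped. Of the 7 log2 fold changes 6 were negative with a median of −0.25, and none passed an adjusted p of 0.05 in limma with all 6 tumors. *Adgre1*, *Itgam* and *Lyz2* had an unadjusted p under 0.05 (16.3% of all genes did). These 3 of the 7 were lower in each treated tumor than in each control tumor, where 20.2% of all genes did not overlap in either direction. With control tumor 1 left out, 3 were negative, the median was 0.14, and 1, *Adgre1*, passed as lower. The sum of 5 endothelial markers was 4315, 1733 and 1235 in the control tumors and 4294, 4767 and 5034 in the treated tumors, so that control tumor 1 lay within the range of the treated tumors and far from the other controls. All 5, *Pecam1*, *Cdh5*, *Kdr*, *Tek* and *Emcn*, were higher at an unadjusted p under 0.05 with all 6 tumors, as were 3 of 4 tested neutrophil markers, against 8.77% of all genes. None of the 5 passed an adjusted p of 0.05 in that fit, and 5 did without control tumor 1. Other lists also held markers that passed as higher without control tumor 1, namely 3 of 4 monocyte, 3 of 4 tested neutrophil, 3 of 4 NK cell, 2 of 6 T cell, 2 of 5 conventional dendritic cell and 3 of 6 mesenchymal markers, with median log2 fold changes of 2.35, 1.92, 1.37, 1.00, 0.12 and 0.94, against 1.68 for the endothelial markers. In the same fit 12.0% of all genes passed as higher, and with so few markers a list these counts rank nothing. The sum of 6 T cell markers was 1660, 593 and 521 against 706, 1443 and 1611, and that of 4 NK cell markers 810, 305 and 226 against 531, 923 and 1012. FF-10101 tumor 1 was the lowest treated tumor for both sums and for 5 of the 10 members, *Gbp2b*, *Gbp6*, *Gbp7*, *Gbp9* and *Gbp10*. It was also the lowest treated tumor for the macrophage, monocyte, neutrophil, conventional dendritic cell, endothelial, skeletal muscle and adipocyte sums. For the B cell, mesenchymal and keratinocyte sums it was not. The share of all genes with that tumor as the lowest treated one was not determined.

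Sums of monocyte (4 markers), mesenchymal (6) and conventional dendritic cell markers (5) overlapped between groups, at 3138 to 8098 against 4909 to 10152, 32561 to 107453 against 58518 to 126112, and 167 to 303 against 182 to 279.99. *Col1a1* and *Col1a2* made up most of the mesenchymal sum. In 2 of the 6 mesenchymal markers, *Pdgfra* and *Fap*, and 1 of the 4 monocyte markers, *Chil3*, each treated tumor was above each control tumor. Over all genes tested 10.9% were, and no marker of these 2 lists was below each control. The sum of 5 neutrophil markers was 527 to 1122 in the control tumors and 1308 to 1943 in the treated tumors, without overlap, with at most 1 read of *Ly6g* in a tumor. The sum of 5 B cell markers stayed between 40.2 and 72.0 in all 6 tumors, and sums of skeletal muscle and adipocyte markers overlapped between groups. The sum of 4 keratinocyte markers was 919 in FF-10101 tumor 1 and 19.6 to 169 in the other 5 tumors. That tumor held 519 reads of *Krt5* and 634 of *Krt14*, and the other treated tumors held 0 of both. No listed marker had 0 reads in every tumor. The part of any of these cell types in the GBP values was not tested.

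The 5 genes most like the family were sought among 11515 genes whose mean reached 50 normalized counts, by Pearson's r over the 6 tumors with the mean centred log2 profile of the members. They were *Ramp2*, *Epas1*, *Cdh13*, *Ddah1* and *Cxcl9*, with r from 0.997 to 0.999. *Cxcl9* encodes an IFN-γ–induced chemokine, and *Ramp2* and *Epas1* are known for their high expression in endothelial cells. *Ramp2* had 309.6, 112 and 81.0 normalized counts in the control tumors and 297, 342 and 383 in the FF-10101–treated tumors. The 6 points share 2 control tumors far below the other 4 tumors, and 555 genes outside the family (4.82%) had an r above 0.95, so the order among them carries little weight. Of the members, *Gbp10*, *Gbp2* and *Gbp5* had the highest r with the family profile (0.993 to 0.994), and *Gbp2b* the lowest at 0.79. The profile holds each member itself, and members with wide differences weigh most in it, so the order at the top was partly fixed in advance. Between pairs of members, r was lowest for those with *Gbp2b*, from 0.65 with *Gbp7* to 0.83 with *Gbp8*.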

How the data were processed

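Bulk RNA was sequenced from 3 control and 3 FF-10101–treated MCA205 tumors. Per the labels and the methods of the study, the authors trimmed reads with fastp (version 0.19.5), quantified transcripts with Salmon (version 1.5.1) on GENCODE vM27 and tested genes with DESeq2 (version 1.22.1). The deposited table gives, for every gene in every tumor, a value on the log2 scale. The values have the form of a variance-stabilizing transformation, and its inverse gave whole reads (within 0.01) for 100% of 325854 values. The design had foreseen normalized counts, so these were recovered as reads divided by the size factor.

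Groups were compared in R (version 4.3.3) with limma (version 3.58.1; lmFit, eBayes with trend) on log2(normalized count + 1), which understates changes of genes with few reads, over genes with a mean of at least 10. P values were adjusted over all genes tested by the Benjamini-Hochberg method. The steps were tested on simulated data. Single values were compared by exact two-sided permutation tests. Of the identifiers, 51484 were named through GENCODE vM21 (GRCm38), which also gave transcripts, lengths, gene order and coding sequences (aligned with Biopython version 1.88). That build differs from the one of the authors, so only the promoter windows carry coordinates. Salmon divides reads between like transcripts by estimation. A count of 0 allows up to 3 reads, and such limits cover counting error only.

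Named genes are the 10 members, genes of 5 fixed pathway lists and of the cell type marker lists, and the 5 genes most like the family. Other *Gbp* loci, *Gm43302* and the 3 protein-coding genes on each side of a cluster are named too. The members, lists and tests were chosen with earlier results of these data known. A gene of one list is not reported here by name. Alternatives were other pseudocounts, minimum counts and scalings, no trend, the deposited log2 values, limma-voom on the recovered reads, a replicate block, each tumor left out in turn and another transcript length.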

Additional observations from a re-analysis of the deposited data

How the results depend on the processing

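Under each of the 10 alternatives that keep all 6 tumors, 0 of the 10 members passed an adjusted p of 0.05, and 8 had an unadjusted p under 0.05. Over all genes tested, 6 passed in the main fit, and 5 did with a pseudocount of 10 and with limma-voom on the recovered reads. With no minimum count 17 passed, with a mean of at least 50 3 did, and with a replicate block 1. The other alternatives that keep all 6 tumors gave 6. For the same-numbered tumors of the 2 groups, deviations from the group mean had correlations of −0.29, −0.04 and −0.28. With only 3 tumors in each centred group these values depend on each other, so they cannot decide whether the numbers pair tumors. Leaving out 1 tumor at a time gave 0 to 10 members and 1 to 3051 genes past the threshold, 10 and 3051 being the counts without control tumor 1. With any other tumor left out, 0 members passed, and without control tumor 2, 5 had an unadjusted p under 0.05. The log2 fold change of *Gbp2b* turned negative without control tumor 2 (−0.15) and without control tumor 3 (−0.41) and was 2.06 without control tumor 1, and that of the other 9 members was positive under all 16 alternatives. For each member the lowest value was the one without control tumor 3 and the highest the one without control tumor 1, from 1.56 to 2.98 for *Gbp2* and from 2.07 to 4.34 for *Gbp10*. By the median transcript length, *Gbp3*, *Gbp6* and *Gbp5* moved to ranks 3, 4 and 5, and *Gbp8* and *Gbp2b* exchanged ranks 8 and 9. For *Gbp3* and *Gbp4* that length is shorter than the coding sequence. With 3 tumors a group, p values rest on few replicates. A gene with 0 reads in a tumor may still be present at a level of up to 3 reads.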
